A study of Mus musculus with 25 samples.

Results

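The 40 genes described here encode the machinery of mitosis: the kinetochore, the chromosomal passenger complex, the spindle checkpoint, the mitotic cyclins and kinases, the ubiquitin ligase that drives anaphase, the mitotic kinesins, spindle organisers and proteins of cytokinesis. They were given as a list of symbols, and 39 of the 40 were measured, out of 18193 genes with a probe set. Ccnb1, which encodes cyclin B1, was not analysed here. Each gene was read through 1 probe set, the one with the highest mean over the 25 arrays among those naming that gene alone.

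The cells were RAW 264.7, an established mouse macrophage line that divides in culture and was transformed with Abelson leukaemia virus. They were exposed for 6 h to hypochlorous acid (HOCl), the chlorinating oxidant that myeloperoxidase makes at sites of inflammation, added to the culture medium. There were 8 doses, with 4 arrays at 0 mM and 3 arrays at each of 3.5, 2.8, 2.1, 1.4, 0.7, 0.35 and 0.14 mM. All groups were the same line near confluence in the same serum-containing medium, and the 0 mM cultures were kept in it without HOCl. The question was how transcript levels follow the dose, and for these genes how far they fell at the middle doses and where they stood at the highest dose.

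Mitotic genes are transcribed periodically. In quiescent cells and in G1 a repressor complex built on DREAM and the pocket proteins holds them off through CHR elements. In G2 the activators B-MYB and FOXM1, together with NF-Y at neighbouring CCAAT boxes, switch them on. After anaphase most of the proteins are destroyed by the anaphase-promoting complex, so the transcripts of this set are widely read as a measure of cycling cells in a population. In bulk RNA, fewer cells in G2 and mitosis and less of the RNA per such cell cannot be told apart.

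The elements named above are short enough to be read in the promoter sequence, and 6 windows are printed for genes named in the results below. All but the Psrc1 window hold both elements, so the 6 are not typical of the members. Aspm, Cenpf, Plk1 and Cenpa, also named below, have a CCAAT box but no CHR element and are not printed. RefSeq promoter windows (GRCm38.p6) were found for 33 of the 39 members. Within the 250 bases before a start site the CHR core TTTGAA was present for 10 of 33 members (30.3%) and 18.3% of 27025 genes. The NF-Y box CCAAT was present for 25 of 33 (75.8%) and 37.5% of genes, and both for 9 of 33 (27.3%) and 6.45% of genes. Within the 100 bases before the start both were present for 7 of 33 (21.2%) and 1.26% of genes. The E2F motifs TTTGGCGC and TTTCCCGC were in the window of 0 of 33 members and of 0.485% and 1.03% of genes. All motifs were searched on both strands. None contains another, though neighbouring matches can share end bases, and a match describes the letters only.

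The windows below run 5′ to 3′ along the gene's strand and end at the base before the start, with CHR cores (TTTGAA, or TTCAAA on the opposite strand) and CCAAT boxes (or ATTGG) in capitals. Cdk1 is read from chr10:69352913-69353012 (minus strand), Cdc20 from chr4:118437344-118437443 (minus), Ube2c from chr2:164769829-164769928 (plus), Top2a from chr11:99024190-99024289 (minus) and Prc1 from chr7:80294376-80294475 (plus). Psrc1, from chr3:108383704-108383803 (plus), is the member with the largest change and, in this window, has a CCAAT box but no CHR core. Prc1 and Psrc1 each have another listed start.
Cdk1: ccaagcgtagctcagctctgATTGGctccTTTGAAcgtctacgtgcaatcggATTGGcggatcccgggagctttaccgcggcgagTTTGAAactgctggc
Cdc20: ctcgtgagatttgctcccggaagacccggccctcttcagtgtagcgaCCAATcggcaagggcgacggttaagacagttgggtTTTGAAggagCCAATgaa
Ube2c: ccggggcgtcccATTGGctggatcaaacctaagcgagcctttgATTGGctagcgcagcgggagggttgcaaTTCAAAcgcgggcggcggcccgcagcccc
Top2a: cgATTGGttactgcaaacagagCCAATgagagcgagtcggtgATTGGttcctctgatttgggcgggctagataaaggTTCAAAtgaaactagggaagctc
Prc1: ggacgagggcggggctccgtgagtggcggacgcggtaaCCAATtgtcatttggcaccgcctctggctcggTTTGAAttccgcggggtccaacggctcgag
Psrc1: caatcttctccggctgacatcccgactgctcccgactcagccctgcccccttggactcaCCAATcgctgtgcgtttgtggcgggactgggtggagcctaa
In the first 5 windows the CHR core nearest the start began 15 (Cdk1), 18 (Cdc20), 29 (Ube2c), 23 (Top2a) and 30 (Prc1) bases before it.

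All values are log2 signals as deposited, with the median of each array at 0; base 2 is inferred from their span, and folds rest on it. At 0 mM the member means lay between 2.28 and 6.82, and 38 of 39 members stood above the array median on every array. Of 12 macrophage markers, Lyz2, Csf1r, Cd68, Cd14 and Tyrobp were among the brightest genes (median signals of 6.77 to 8.23), and Mrc1 stood below the array median (-0.99). The fibroblast, lymphocyte, epithelial and endothelial markers had median signals of -1.37 to 1.49, with Epcam the highest. The 3′ minus 5′ difference of the actin control probe sets was 0.12 to 0.68 over the arrays. The labels call the replicates biological, and the number of arrays limits the precision.

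Several arrays stood apart from others of their dose, and the results depend on them. The 8 probe sets for Bacillus spike transcripts divided the arrays into a low level (at most 1.12, 11 arrays: the untreated ones, those at 0.14 mM, and the first 2 replicates at 0.35 and at 0.7 mM) and a high level (at least 1.75, 14 arrays: replicate 3 of 0.35 and 0.7 mM, and everything from 1.4 mM up). From 1.4 mM up, dose and spike level therefore cannot be told apart in a comparison with 0 mM, while comparisons among 1.4 to 3.5 mM lie within the high level. Over genes outside the lists, replicate 1 of 2.8 mM resembled replicate 1 of 3.5 mM (centred r = 0.51) more than its own dose (mean r = 0.12), and replicate 1 of 0.7 mM resembled replicate 3 of 0 mM (r = 0.72, against 0.07 for its own dose). Replicate 3 of 0.7 mM resembled replicate 3 of 0.35 mM (r = 0.89, against -0.41 for its own dose). Replicate 3 of 1.4 mM in turn resembled replicate 3 of 0.7 mM (r = 0.89, against 0.16 for its own dose). These replicates 3 are all at the high spike level. The correlations are across genes, which are not independent replicates.

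As a group the mitotic genes fell at 0.35 mM, stood between at 0.7 and 1.4 mM, had their lowest dose mean at 2.1 mM and were back near the untreated level at 3.5 mM. Replicates 2 and 3 of 2.8 mM were as low as the arrays of 2.1 mM, so the order of these doses rests on replicate 1 of 2.8 mM. The mean over the 39 members was 3.73, 4.14, 4.37 and 4.07 on the 0 mM arrays and 3.79, 4.00 and 3.99 at 0.14 mM. It was 3.20, 2.86 and 3.30 at 0.35 mM, below every array of both lower doses. At 0.7 mM it was 4.42, 3.60 and 3.45, so replicate 1 stood at the top of the series and the other 2 below every 0 mM array.

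The scatter was widest at 1.4 and 2.8 mM. The member mean was 2.64, 4.12 and 3.08 at 1.4 mM and 3.90, 2.40 and 2.34 at 2.8 mM, so that replicate 2 of 1.4 mM and replicate 1 of 2.8 mM lay within the range of the untreated arrays while the rest of both doses lay far below it. At 2.1 mM the arrays gave 2.53, 2.42 and 2.25 and at 3.5 mM 4.18, 4.30 and 4.32, with no overlap between these doses. The SD over 3 arrays was 0.76 at 1.4 mM and 0.88 at 2.8 mM, against 0.15 at 2.1 mM and 0.08 at 3.5 mM.

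**Figure D1:**
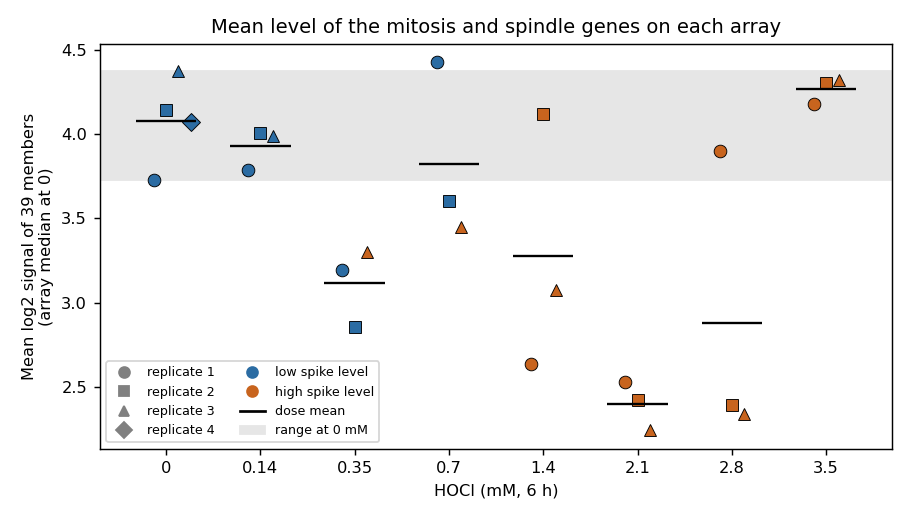
Mean log2 signal of the 39 measured members (array median at 0) on each of the 25 arrays, by HOCl dose in mM. Symbols give the replicate number, colours the spike level, bars the dose mean and the grey band the range at 0 mM. The arrays of 2.1 mM lie between 2.25 and 2.53, and those of 3.5 mM between 4.18 and 4.32.

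The members rose and fell together. Between pairs of members the correlation over the 25 arrays had a median of 0.87 (741 pairs, lowest 0.24), and after the dose means were removed it was still 0.81, so the arrays of one dose that were high for one member were high for most. These points share array and dose, and the values are descriptions. The correlation with the mean of the other members exceeded 0.9 for 29 of 39 genes, and was lowest for Ccnb2 (0.63) and Incenp (0.75).

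**Figure D2:**
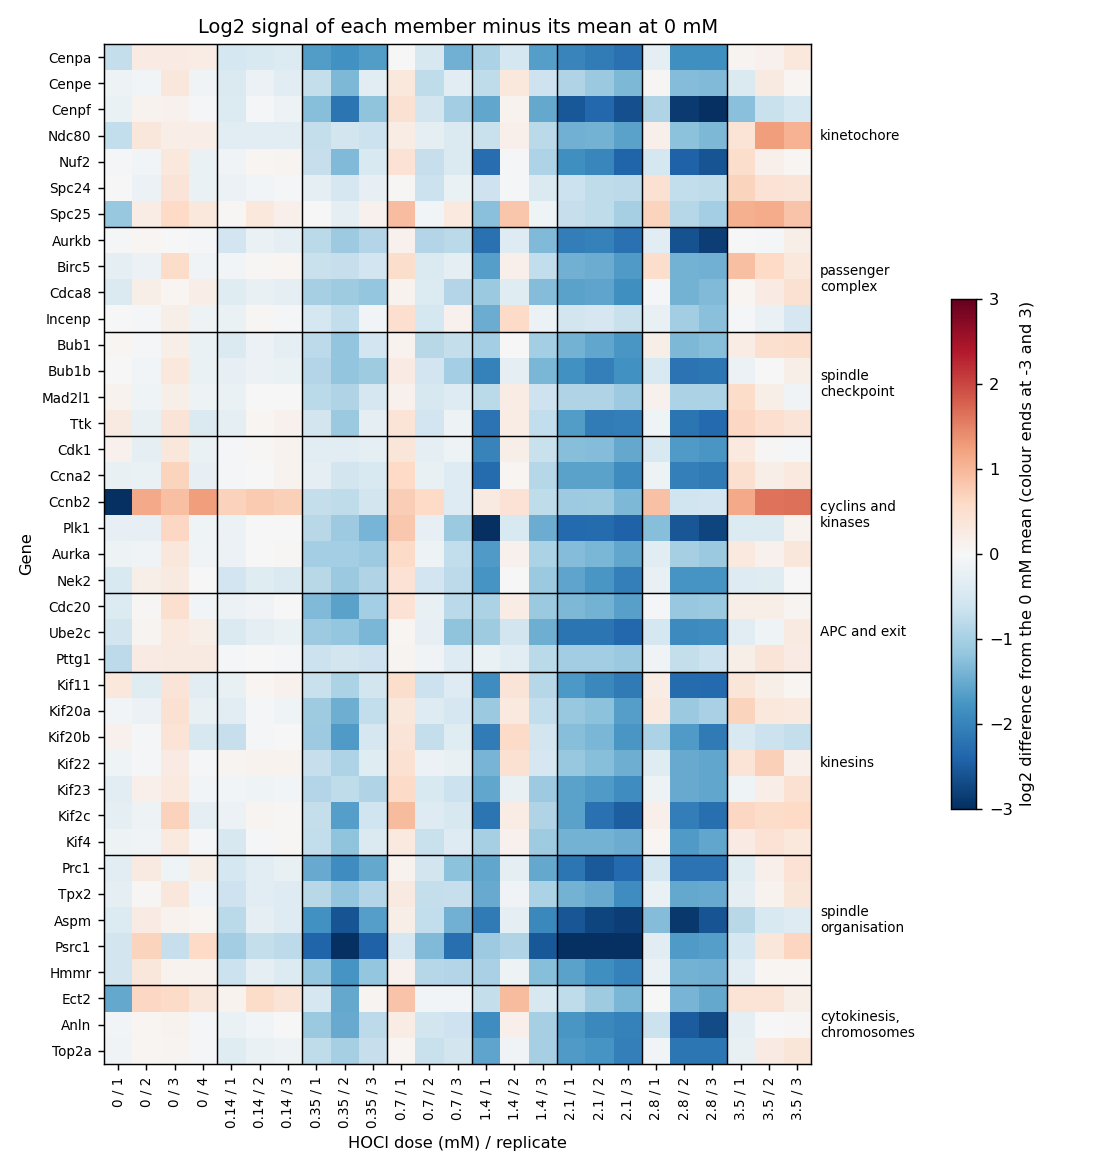
Log2 signal of each member on each array minus its mean at 0 mM, with members in rows by role and arrays in columns by dose and replicate. The arrays of 2.1 mM and replicates 2 and 3 of 2.8 mM are low for nearly every gene, and Ccnb2 on replicate 1 of 0 mM is 0.88 against 5.10 to 5.45 on the other untreated arrays, which lowers the mean it is compared with.

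At 0.35 mM 10 of 39 members were lower than at 0 mM and 0 higher (limma, adjusted p under 0.05), where 5.56% of all genes were lower and 2.12% higher. All 39 changes were negative, with a median of -0.85 against 0.03 over all genes, and for 32 members every array of 0.35 mM lay below every 0 mM array, as it did for 8.86% of genes. Of the spindle organisers 4 of 5 fell: Psrc1, Aspm, Prc1 and Hmmr, with Tpx2 at -0.96 (adjusted p = 0.0771). Cdc20 and Ube2c of the anaphase-promoting complex group fell as well, as did Cenpa, Kif20a, Cdca8 and Aurka. The kinases at the centre of mitotic entry did not pass: Cdk1 was at -0.32 (adjusted p = 0.627) and Plk1 at -1.10 (adjusted p = 0.177).

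The fall at 0.35 mM was seen within the low spike level too. There, on the 2 low-level arrays of this dose, 17 members were lower, with a median of -0.99. The share of all genes lower in that separate fit was not computed. The count depended on single arrays: it was 0 without replicate 2 of 0.35 mM, 6 without its replicate 1, 3 and 6 without replicates 2 and 4 of 0 mM, and 17 without replicate 1 of 2.8 mM.

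At 2.1 mM 35 of 39 members were lower than at 0 mM and 0 higher, where 8.2% of all genes were lower and 7.32% higher. The median change was -1.67, or 3.19-fold, against 0.00 over all genes. The fall was at least 2-fold for 35 members and at least 4-fold for 10. For 36 members every array of 2.1 mM lay below every 0 mM array, as for 15% of genes. The largest falls were those of Psrc1, Aspm, Cenpf, Plk1 and Prc1, from 8.43-fold to 5.05-fold.

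The 4 members that did not pass at 2.1 mM were Ccnb2, Ect2, Spc25 and Incenp. For Ccnb2, Ect2 and Spc25 replicate 1 of 0 mM was far below the other untreated arrays, and without that array Ccnb2 was at -2.27 (adjusted p = 0.000764), Ect2 at -1.57 (adjusted p = 0.0232) and Spc25 at -1.19 (adjusted p = 0.0637). Incenp, the scaffold of the chromosomal passenger complex, was at -0.57 (95% interval -1.27 to 0.12) with all arrays. This rests on the probe set read: of 4 further Incenp probe sets 2 passed at 2.1 mM, at -1.25 (adjusted p = 0.0156) and -0.81 (adjusted p = 0.0108). The latter, with a mean signal of 0.21, was also lower at 3.5 mM than at 0 mM (-1.23, adjusted p = 0.000447).

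The fall at 2.1 mM has the limit that every array of this dose is at the high spike level and every 0 mM array at the low one. With the spike level as a term, which rests on replicate 3 of 0.35 and 0.7 mM, the median was -1.44 and 0 members passed. On those 2 arrays, which share the high level with 2.1 mM, the member mean was 3.30 and 3.45, between that of 2.1 mM and that of the untreated arrays.

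Between 2.1 and 3.5 mM, which share the high spike level, 36 of 39 members rose and 0 fell, where 10.9% of all genes rose and 8.73% fell. The median difference was 1.89, or 3.71-fold, against 0.09 over all genes. For all 39 members every array of 3.5 mM lay above every array of 2.1 mM, as for 26.2% of genes. The largest rises were those of Psrc1, Kif2c, Ccnb2, Ttk and Prc1, and the smallest were Incenp (0.32, adjusted p = 0.609) and Kif20b (0.85, adjusted p = 0.245). With the spike level as a term the count was again 36. All arrays of both doses are at the high level, so this term can alter only the standard errors here. The repeat is therefore no check on the spike level.

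At 3.5 mM 0 of 39 members were lower and 0 higher than at 0 mM by limma, where 4.83% of all genes were lower and 4.54% higher. An unadjusted p under 0.05 was found for 3 members and for 11423 of 45037 probe sets. The median was 0.17, against 0.10 over all genes. The 3.5 mM mean lay within the range of the untreated arrays for 23 members, above it for 12 and below it for 4 (Cenpf, Incenp, Kif20b and Aspm). The shares of all genes within, above and below that range were not computed. These results do not show equal levels: the 95% interval was -0.62 to 0.83 for Cdk1, -0.56 to 0.90 for Cenpa, -1.24 to 0.76 for Plk1 and -1.79 to 0.16 for Cenpf.

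**Figure D3:**
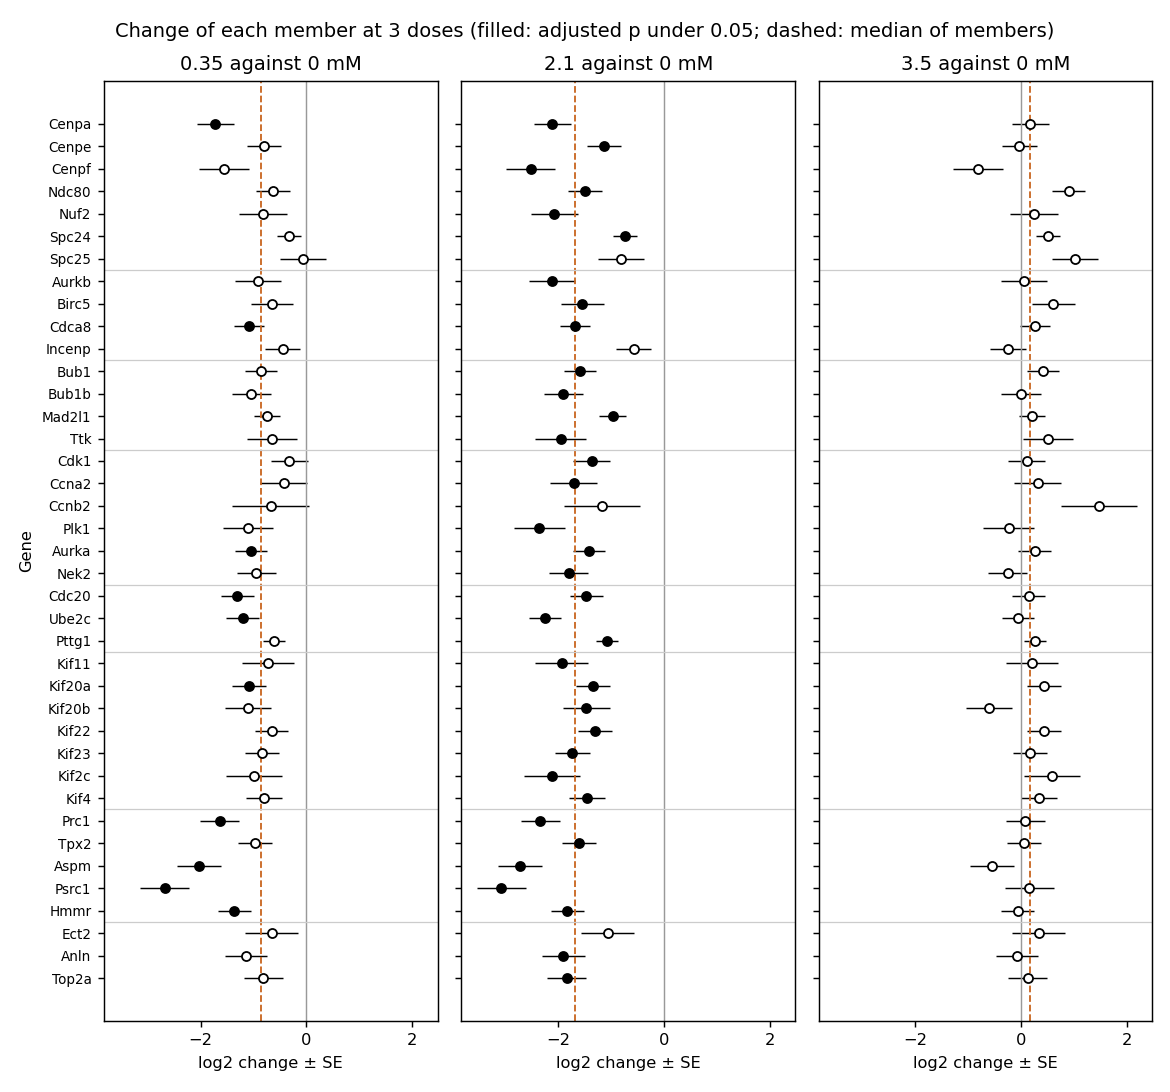
Log2 change against 0 mM of each member with the standard error of the fit, at 0.35, 2.1 and 3.5 mM (n = 3 arrays each, 4 at 0 mM), with genes in rows by role. Filled points passed an adjusted p of 0.05, and the dashed lines mark the members' medians of -0.85, -1.67 and 0.17.

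The kinetochore links the centromere to spindle microtubules. Cenpa (probe set 1450842_a_at), the histone H3 variant that marks centromeric chromatin, had signals of 4.54, 5.49, 5.51 and 5.47 at 0 mM and 4.73, 4.80 and 4.84 at 0.14 mM. They were 3.58, 3.43 and 3.57 at 0.35 mM, below every array of the lower doses. At 0.7 mM they were 5.27, 4.76 and 3.81 and at 1.4 mM 4.31, 4.73 and 3.59.
The lowest values were those of 2.1 mM: 3.27, 3.16 and 3.00. Replicate 1 of 2.8 mM (4.96) stood apart from the other arrays of that dose (3.41 and 3.41), and 3.5 mM gave 5.32, 5.37 and 5.57, overlapping the untreated arrays. Cenpa fell by 1.72 ± 0.35 (SE) at 0.35 mM (adjusted p = 0.00983) and by 2.11 ± 0.35 at 2.1 mM (adjusted p = 0.000878), and it was 2.28 ± 0.38 higher at 3.5 than at 2.1 mM (adjusted p = 0.000375).

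Of the 7 kinetochore members 6 fell at 2.1 mM and all 7 rose from 2.1 to 3.5 mM. Cenpf, a large corona protein, fell by 2.52 at 2.1 mM (adjusted p = 0.00183), and at 3.5 mM was still at -0.82 against 0 mM (adjusted p = 0.284). The Ndc80 complex grips microtubules directly. Its members Ndc80, Nuf2, Spc24 and Spc25 did not move by the same amount: Nuf2 was at -2.07 and Spc24 at -0.73 at 2.1 mM (adjusted p = 0.00471 and 0.0394), and the difference between them was not tested. At 3.5 mM Ndc80 and Spc25 had the largest positive changes of the group against 0 mM, 0.90 (adjusted p = 0.0782) and 1.01 (adjusted p = 0.151), and replicate 1 of 0 mM was their lowest untreated array (1.55 and 2.03).

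The chromosomal passenger complex corrects faulty attachments and steers cytokinesis. Cdca8 (1428481_s_at), the borealin subunit, had signals of 4.67, 5.30, 5.17 and 5.31 at 0 mM, 4.74, 4.89 and 4.84 at 0.14 mM and 4.10, 4.04 and 3.95 at 0.35 mM. They were 5.23, 4.71 and 4.24 at 0.7 mM, 3.99, 4.76 and 3.81 at 1.4 mM and 3.51, 3.54 and 3.26 at 2.1 mM. At 2.8 mM they were 5.08, 3.69 and 3.79 and at 3.5 mM 5.18, 5.36 and 5.57.
The pattern is that of Cenpa, with 0.35 and 2.1 mM wholly below the untreated arrays and 3.5 mM overlapping them. Cdca8 fell by 1.08 ± 0.28 at 0.35 mM (adjusted p = 0.0275) and by 1.67 ± 0.28 at 2.1 mM (adjusted p = 0.000923). Aurkb, the kinase of the complex, had 3.88, 4.00, 3.93 and 3.90 at 0 mM and 1.86, 1.90 and 1.70 at 2.1 mM, a 4.32-fold fall (adjusted p = 0.00328), and 3.93, 3.89 and 4.11 at 3.5 mM. Its values at 0.35 mM, 3.13, 2.85 and 3.06, also lay below the untreated arrays, with an adjusted p of 0.215. Birc5, or survivin, fell by 1.54 at 2.1 mM (adjusted p = 0.0149), so 3 of 4 subunits passed there through the probe sets read. Incenp did not, though 2 of its further probe sets did.

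The spindle checkpoint holds the cell in metaphase until every kinetochore is attached. Its members Bub1, Bub1b, Mad2l1 and Ttk all fell at 2.1 mM, and none passed at 0.35 mM. Bub1b (1416961_at), the BubR1 checkpoint protein, had 4.37, 4.31, 4.70 and 4.18 at 0 mM, 4.15, 4.23 and 4.20 at 0.14 mM and 3.50, 3.21 and 3.34 at 0.35 mM. It had 4.64, 3.81 and 3.37 at 0.7 mM, 2.37, 4.10 and 3.02 at 1.4 mM and 2.58, 2.33 and 2.57 at 2.1 mM. At 2.8 mM the signals were 3.94, 2.18 and 2.21 and at 3.5 mM 4.21, 4.39 and 4.57.
On replicate 1 of 1.4 mM and replicates 2 and 3 of 2.8 mM Bub1b was thus as low as at 2.1 mM, and at 3.5 mM it lay among the untreated arrays. It fell by 1.90 ± 0.37 at 2.1 mM (adjusted p = 0.00253) and was at -0.00 ± 0.37 at 3.5 mM. Ttk, the Mps1 kinase that starts checkpoint signalling, fell by 1.95 at 2.1 mM (adjusted p = 0.01) and was 2.45 higher at 3.5 than at 2.1 mM (adjusted p = 0.00223).

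Cyclin-dependent kinase 1 with cyclins A and B carries the cell into mitosis. Cdk1 had signals of 5.15, 4.76, 5.36 and 4.83 at 0 mM, 4.99, 5.07 and 5.13 at 0.14 mM and 4.69, 4.68 and 4.74 at 0.35 mM. It had 5.40, 4.75 and 4.86 at 0.7 mM, 3.01, 5.19 and 4.37 at 1.4 mM and 3.75, 3.73 and 3.50 at 2.1 mM. At 2.8 mM it had 4.57, 3.33 and 3.29 and at 3.5 mM 5.33, 5.07 and 4.99.
Its 0.35 mM arrays lay only just below the lowest untreated one, and its lowest value of the series was on replicate 1 of 1.4 mM. Cdk1 fell by 1.37 ± 0.35 at 2.1 mM (adjusted p = 0.0132), a call lost without replicate 3 of that dose, and was 1.47 ± 0.37 higher at 3.5 than at 2.1 mM (adjusted p = 0.00913). Ccna2, cyclin A2, was at -0.43 at 0.35 mM (adjusted p = 0.605) and -1.70 at 2.1 mM (adjusted p = 0.015). Its other probe set was at -1.34 and -2.33 (adjusted p = 0.0829 and 0.00254).

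Plk1 (1448191_at), the polo kinase that promotes mitotic entry, centrosome maturation and cytokinesis, had the lowest F test p of the cyclins and kinases. Its signals were 3.54, 3.54, 4.40 and 3.66 at 0 mM, 3.60, 3.80 and 3.78 at 0.14 mM and 2.96, 2.69 and 2.39 at 0.35 mM. They were 4.60, 3.54 and 2.66 at 0.7 mM, 0.62, 3.32 and 2.30 at 1.4 mM and 1.45, 1.48 and 1.34 at 2.1 mM. At 2.8 mM they were 2.49, 1.22 and 1.03, and at 3.5 mM 3.38, 3.37 and 3.89.
Every array from 1.4 to 2.8 mM lay below every untreated one. Plk1 fell 5.12-fold at 2.1 mM (2.35 ± 0.48, adjusted p = 0.00315) and by 2.20 ± 0.48 at 2.8 mM (adjusted p = 0.00548). Ccnb2, cyclin B2, had 5.34, 5.10 and 5.45 on 3 untreated arrays and 0.88 on replicate 1, and 3.10, 3.12 and 2.85 at 2.1 mM. At 3.5 mM it had 5.33, 5.81 and 5.84, a rise of 2.63 ± 0.78 from 2.1 mM (adjusted p = 0.0226) that was lost without any 1 array of 2.1 mM or without replicate 2 or 3 of 3.5 mM. Aurka and Nek2, centrosomal kinases, fell by 1.42 and 1.79 at 2.1 mM (adjusted p = 0.00492 and 0.00351). No further Nek2 probe set passed there, the brightest of them being at -0.84 (adjusted p = 0.235).

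The anaphase-promoting complex is turned on by Cdc20 and works with the ubiquitin-conjugating enzyme Ube2c, and its substrate Pttg1, or securin, guards the cohesin protease. All 3 fell at 2.1 mM and all 3 rose from 2.1 to 3.5 mM. Ube2c (1452954_at), with the lowest F test p of all members, had 5.39, 6.02, 6.24 and 6.10 at 0 mM, 5.50, 5.67 and 5.74 at 0.14 mM and 4.85, 4.79 and 4.56 at 0.35 mM. It had 5.99, 5.69 and 4.72 at 0.7 mM, 4.88, 5.39 and 4.48 at 1.4 mM and 3.75, 3.75 and 3.57 at 2.1 mM. At 2.8 mM it had 5.41, 4.02 and 4.09 and at 3.5 mM 5.61, 5.81 and 6.20.
Ube2c fell by 1.20 ± 0.31 at 0.35 mM (adjusted p = 0.0267) and by 2.25 ± 0.31 at 2.1 mM (adjusted p = 0.000272). Cdc20 moved nearly as far at 0.35 as at 2.1 mM, -1.31 (adjusted p = 0.0188) and -1.47 (adjusted p = 0.00423). These comparisons share the 0 mM arrays. The other Cdc20 probe sets did not pass at 0.35 mM (-1.15 and -0.66, adjusted p = 0.0611 and 0.0861). At 2.1 mM they were at -1.39 and -0.65 (adjusted p = 0.0151 and 0.0622). Pttg1 was at -0.61 at 0.35 mM (adjusted p = 0.0848) and -1.07 at 2.1 mM (adjusted p = 0.0024). Its other probe sets were at -0.81 and -0.73 at 0.35 mM (adjusted p = 0.0459 and 0.0958).

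The mitotic kinesins move chromosomes and slide or destabilise spindle microtubules. All 7 fell at 2.1 mM and 6 rose from 2.1 to 3.5 mM, with Kif20b the exception. Kif23 (1455990_at), a subunit of the centralspindlin complex of the midzone, had 3.83, 4.32, 4.47 and 4.10 at 0 mM, 4.09, 4.06 and 4.09 at 0.14 mM and 3.30, 3.42 and 3.29 at 0.35 mM. It had 4.75, 3.73 and 3.53 at 0.7 mM, 2.62, 3.96 and 3.09 at 1.4 mM and 2.57, 2.48 and 2.31 at 2.1 mM. At 2.8 mM it had 4.02, 2.67 and 2.63 and at 3.5 mM 4.04, 4.37 and 4.63.
The 0.35 mM arrays were again wholly below the untreated ones, with -0.85 ± 0.32 (adjusted p = 0.123), and the fall at 2.1 mM was 1.73 ± 0.32 (adjusted p = 0.00188). Kif2c, a microtubule depolymerase, fell 4.33-fold at 2.1 mM (adjusted p = 0.0119) and was 6.49-fold higher at 3.5 than at 2.1 mM (adjusted p = 0.00247). Kif11, the motor that separates the spindle poles, was at -0.72 at 0.35 mM (adjusted p = 0.414) and fell by 1.93 at 2.1 mM (adjusted p = 0.0144). Its other probe sets differed at 2.1 mM, at -2.37 (adjusted p = 0.00469) and -0.23 (adjusted p = 0.782). The latter was at 1.34 at 3.5 mM (adjusted p = 0.0615).

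The spindle organisers had the largest changes of the 8 role groups at 0.35 mM, with a median of -1.64, and at 2.1 mM, with a median of -2.34. Psrc1 (1417323_at), a microtubule-binding protein of the central spindle, had signals of 3.28, 4.49, 3.14 and 4.42 at 0 mM, 2.79, 3.11 and 3.05 at 0.14 mM and 1.43, 0.61 and 1.42 at 0.35 mM. They were 3.32, 2.50 and 1.57 at 0.7 mM, 2.75, 2.93 and 1.28 at 1.4 mM and 0.82, 0.68 and 0.76 at 2.1 mM. At 2.8 mM they were 3.52, 2.13 and 2.18, and at 3.5 mM 3.30, 4.18 and 4.47.
Every array of 0.14 mM already lay below the untreated range, without a call (by limma 0 of 39 members passed at 0.14 mM and 0 had an unadjusted p under 0.05, where 0% of all genes were lower and 0.011% higher). Of 45037 probe sets 4009 had such an unadjusted p at 0.14 mM. Psrc1 fell 6.41-fold at 0.35 mM (2.68 ± 0.46, adjusted p = 0.00589) and 8.43-fold at 2.1 mM (3.08 ± 0.46, adjusted p = 0.000452), and it was 9.37-fold higher at 3.5 than at 2.1 mM (adjusted p = 0.000202). On replicates 2 and 3 of 2.8 mM (2.13 and 2.18) it was higher than on any array of 2.1 mM.
Aspm, which focuses the spindle poles, fell 4.07-fold at 0.35 mM and 6.55-fold at 2.1 mM (adjusted p = 0.0101 and 0.000527). Prc1, the bundler of midzone microtubules whose window above holds both elements, fell 3.12-fold and 5.05-fold (adjusted p = 0.0147 and 0.000622). Hmmr and Tpx2, which act in spindle assembly, fell by 1.82 and 1.59 at 2.1 mM (adjusted p = 0.00108 and 0.00301).

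Of the last group, Anln (anillin, the scaffold of the cleavage furrow) and Top2a (topoisomerase II alpha, which untangles sister chromatids) fell at 2.1 mM. Anln (1433543_at) had 4.58, 4.73, 4.78 and 4.62 at 0 mM, 4.49, 4.60 and 4.65 at 0.14 mM and 3.55, 3.17 and 3.90 at 0.35 mM. It had 4.90, 4.12 and 4.04 at 0.7 mM, 2.82, 4.83 and 3.68 at 1.4 mM and 2.92, 2.75 and 2.66 at 2.1 mM. At 2.8 mM it had 4.03, 2.19 and 1.99 and at 3.5 mM 4.41, 4.68 and 4.71.
Its lowest values were therefore those of replicates 2 and 3 of 2.8 mM. Anln fell by 1.90 ± 0.40 at 2.1 mM (adjusted p = 0.00412) and by 1.94 ± 0.40 at 2.8 mM (adjusted p = 0.00401). Top2a had 5.20, 5.38, 5.39 and 5.28 at 0 mM, 4.56, 4.31 and 4.62 at 0.35 mM, 3.61, 3.55 and 3.27 at 2.1 mM and 5.08, 5.56 and 5.66 at 3.5 mM. It fell 3.57-fold at 2.1 mM (adjusted p = 0.00305), and at 0.35 mM, where its arrays also lay below the untreated ones, the adjusted p was 0.201.

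**Figure D4:**
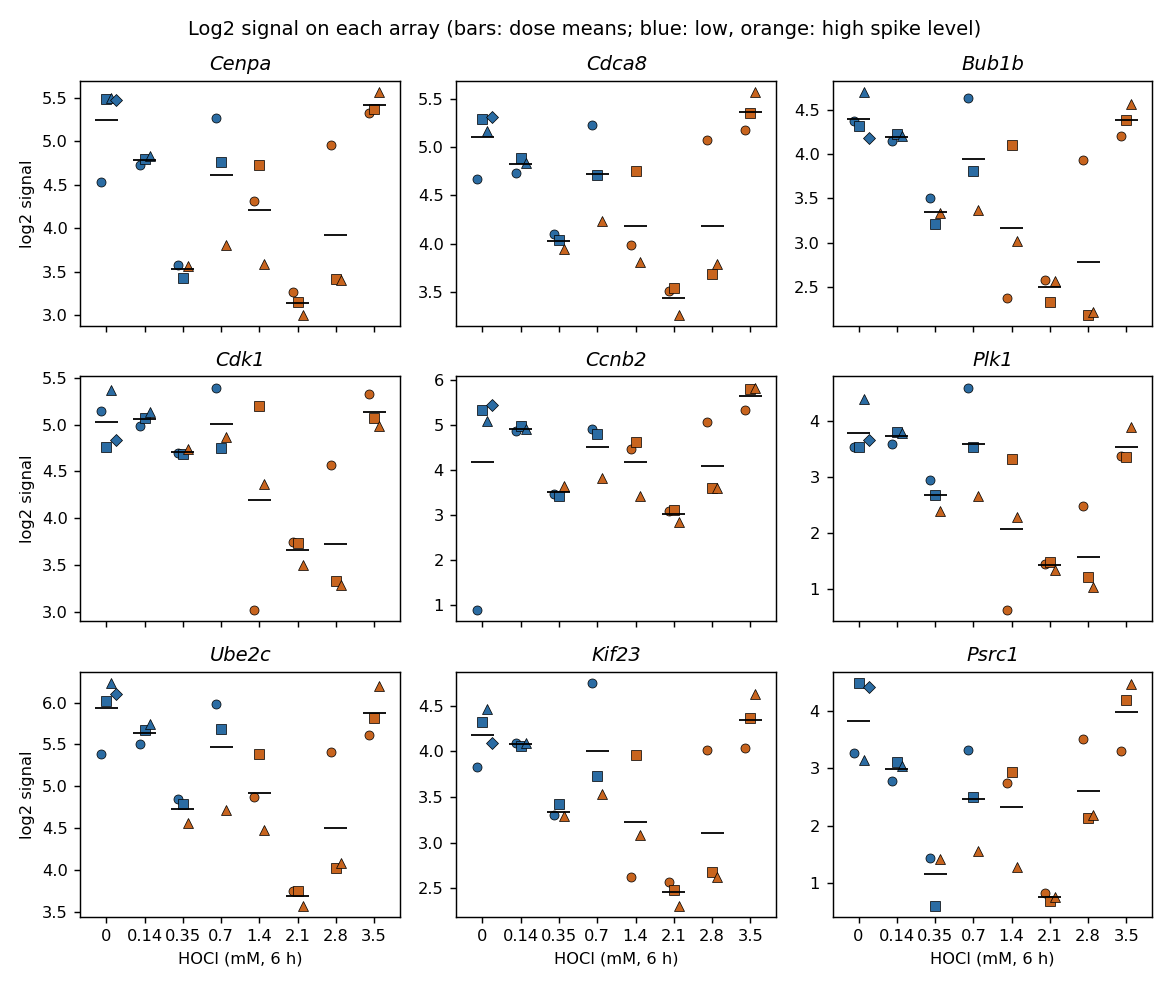
Log2 signal of 9 members on each array by HOCl dose in mM, with bars for dose means, symbols for replicates and colours for the low (blue) and high (orange) spike level. At 0.35 mM Cenpa and Psrc1 lie far below their untreated arrays while Cdk1 (4.68 to 4.74) lies just below them, and all 9 are low at 2.1 mM and high at 3.5 mM.

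The members differed in how much of their fall was already present at 0.35 mM. The change at 0.35 mM was 55.1% of that at 2.1 mM for the median member, from 6.8% for Spc25, 23.4% for Cdk1 and 25.3% for Ccna2 to 81.8% for Cenpa, 87.2% for Psrc1 and 89.2% for Cdc20. By role the median share was highest for the spindle organisers (74.6%) and lowest for the kinetochore (46.1%). The low end depends on single measurements. Without replicate 1 of 0 mM Spc25 was at -0.43 at 0.35 mM and -1.19 at 2.1 mM, and the other probe set of Ccna2 was at -1.34 and -2.33. Both changes in a share use the same 0 mM arrays, and the shares have no test. The direct comparison of 2.1 with 0.35 mM, which was added after the data were seen, had a median of -0.70. In it 0 members were lower or higher (limma, adjusted p under 0.05), where 0.066% of genes were lower and 0.335% higher. An unadjusted p under 0.05 was found for 15 members and for 8301 of 45037 probe sets in this comparison. Cdk1 was at -1.05 (adjusted p = 0.174) and Cdc20 at -0.16 (adjusted p = 0.825) in it.

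At 1.4 mM 6 of 39 members were lower than at 0 mM and 0 higher, where 5.06% of all genes were lower and 3.85% higher. The 6 were Plk1, Psrc1, Aspm, Bub1b, Ube2c and Cdca8, with changes of -1.70 to -0.93 and adjusted p of 0.0341 to 0.0494, and the median of all members was -0.84. The replicates disagreed: replicate 2 was the highest array of the dose for 38 members, while on replicates 1 and 3 together 34 members lay below every untreated array. The count of 34 leaves out the highest array of the dose, and its share over all genes was not computed. Without replicate 2 16 members were lower, and without replicate 1, replicate 3 or replicate 4 of 0 mM 0 were. In all, 18 of the 25 omissions moved this count by more than 1.5 times.
Replicate 1 of 1.4 mM was low in an uneven way. Cdk1 (3.01), Ccna2 (2.77) and Plk1 (0.62) had their lowest values of the 25 arrays there, while Pttg1 (6.63), Ccnb2 (4.47) and Cenpa (4.31) were well above their 2.1 mM arrays.

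At 0.7 mM 0 of 39 members were lower or higher than at 0 mM by limma, where 0.0165% of genes were lower and 0.148% higher. The median was -0.24, and 1 member had an unadjusted p under 0.05, as had 5136 of 45037 probe sets. Replicate 1 was the highest array of that dose for all 39 members. In the steps between 0.35 and 2.8 mM by limma 0 of 39 passed at 0.7 against 0.35, 1.4 against 0.7 and 2.1 against 1.4 mM, where 0% of genes did in either direction, and 0 at 2.8 against 2.1 mM, where 0.033% of genes were higher. The medians of these steps were 0.65, -0.54, -0.82 and 0.45, with 12, 5, 23 and 8 members at an unadjusted p under 0.05. Of all 45037 probe sets, 2990, 4025, 1343 and 2638 had such a p. From 0.14 to 0.35 mM 2 of 39 members were lower (2.64% of genes), Psrc1 by 1.83 (adjusted p = 0.0457) and Cdc20 by 1.21 (adjusted p = 0.049), and both calls were lost without any 1 array of 0.14 or 0.35 mM and in other omissions (13 of 25 for Psrc1, 17 for Cdc20).

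At 2.8 mM 22 of 39 members were lower than at 0 mM and 0 higher, where 8.6% of all genes were lower and 5.68% higher, with a median of -1.15. The largest falls were those of Cenpf (2.39), Aspm (2.26), Plk1 (2.20), Anln (1.94) and Aurkb (1.92), with adjusted p of 0.00187 to 0.00683. Replicate 1 was the highest array for all 39 members, and for 24 of them it lay within the untreated range, while on replicates 2 and 3 together 35 members lay below that range. This last count leaves out the highest array too, and for the counts of 24 and 35 the shares over all genes were not computed. Without replicate 1 35 members were lower, and without replicate 2 or 3 the counts were 4 and 5. It was 14 without replicate 2 or 3 of 0 mM.
From 2.8 to 3.5 mM, within the high spike level, 27 of 39 members rose and 0 fell, where 8.81% of all genes rose and 5.33% fell, with a median of 1.40. Nuf2, Ttk, Kif2c, Aurkb and Plk1 rose most, by 2.09 to 1.97. The count was 2 without replicate 2 or 3 of 2.8 mM, 15 and 8 without replicates 2 and 3 of 3.5 mM, and 36 without replicate 1 of 2.8 mM.

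Over the 7 doses together the F test called 33 of 39 members, and 28% of all genes. The 6 that did not pass were Kif20b, Cenpe, Spc25, Ect2, Ccnb2 and Incenp. For 27 members the arrays carry further probe sets, 55 in all, and 54 of these were below 0 mM at 2.1 mM, 26 of them past the threshold, with a median of -0.81, smaller than that of the probe sets read; over all genes and directions 6015 of 45037 probe sets passed there. At 0.35 mM 50 of the 55 were below 0 mM and 8 passed (median -0.61), and at 2.8 mM 50 were below and 15 passed (median -0.50). Of all 45037 probe sets 2898 and 5357 passed at these doses, in either direction. At 3.5 mM 1 of the 55 was lower and 1 higher (median 0.14), and 4199 of 45037 passed. These were an Incenp probe set at -1.23 (adjusted p = 0.000447) and a Kif20b one at 1.00 (adjusted p = 0.0271), with mean signals of 0.21 and -0.79.

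The changes of members with and without the motifs are given as a description, with no test. At 2.1 mM the median was -1.65 for the 10 members with TTTGAA (range -2.34 to -1.06) and -1.73 for the 23 without it (-3.08 to -0.82). For CCAAT it was -1.79 for 25 members with it and -1.51 for 8 without it. At 0.35 mM the medians were -0.77 with and -0.95 without TTTGAA.

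Genes near the members in function moved to different degrees. For all lists below, the shares over all genes were 8.2% lower and 7.32% higher at 2.1 mM. From 2.1 to 3.5 mM 10.9% of all genes rose and 8.73% fell. Of 30 further spindle and cytokinesis genes 21 were lower at 2.1 mM and 0 higher, with a median of -1.27, and 21 rose from 2.1 to 3.5 mM. Racgap1, the partner of Kif23 in centralspindlin, fell by 1.70 (adjusted p = 0.000988), Kifc1, a minus-end kinesin, by 1.74 (adjusted p = 0.000257), and Dlgap5, a spindle assembly factor, by 1.32 (adjusted p = 0.000527). Over the 25 arrays the mean of this list correlated with the mean of the members at 0.997, a description of points that share array and dose.

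Condensin and cohesin, which compact and hold chromatids, were mixed. Of 19 genes 10 were lower and 3 higher at 2.1 mM (median -0.85). Ncaph2, a condensin II subunit, fell by 1.26 (adjusted p = 0.00106), while the cohesin release factors Wapl and Pds5a rose by 1.20 and 0.65 (adjusted p = 0.00105 and 0.00505), and both were lower again at 3.5 than at 2.1 mM (-1.51 and -0.70, adjusted p = 0.000133 and 0.00303).
Of 31 further kinetochore and centromere genes 7 were lower and 2 higher at 2.1 mM (median -0.57), and 19 rose and 3 fell from 2.1 to 3.5 mM. Cenpk fell by 1.70 and Oip5, which helps load Cenpa, by 0.98 (adjusted p = 0.00273 and 0.00145).

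The genes around CDK1 moved in part. Of 15 entry-control genes 7 were lower at 2.1 mM and 0 higher (median -0.74). Cks2, a CDK1 subunit, was already lower at 0.35 mM (-2.04, adjusted p = 0.00569) and stood at -1.96 at 2.1 mM (adjusted p = 0.00133), and Cdc25b, the phosphatase that activates CDK1, was at -1.74 (adjusted p = 0.000994). Wee1, the kinase that inhibits CDK1, was at -0.73 (adjusted p = 0.049).
Of the 16 core subunits and regulators of the anaphase-promoting complex 3 were lower and 2 higher, with a median of 0.02. Fzr1, the Cdh1 activator, fell by 1.33 (adjusted p = 0.00211), and Cdc27, a core subunit, rose by 1.81 (adjusted p = 0.00692).
Of 22 regulators of G2/M transcription 4 were lower and 1 higher at 2.1 mM (median -0.32). Foxm1 and Mybl2, which encodes B-MYB, are named after their values were seen: Foxm1 fell by 1.44 at 2.1 mM (adjusted p = 0.00253) and was 1.22 higher at 3.5 than at 2.1 mM (adjusted p = 0.00791), and Mybl2 was at -1.37 and 1.35 (adjusted p = 0.0517 and 0.0623). Of the repressor complex, also chosen after seeing values, the pocket protein gene Rbl2 was lower at 0.35 mM (-1.34, adjusted p = 0.0123) and at 2.1 mM (-1.11, adjusted p = 0.0151), and Lin9 was at 0.10 at 2.1 mM (adjusted p = 0.887). E2f2 fell by 1.10 at 2.1 mM (adjusted p = 0.00235) and was still at -0.84 at 3.5 mM (adjusted p = 0.0159). Nfya, an NF-Y subunit, was lower than at 0 mM at 0.35, 2.8 and 3.5 mM. Its changes were -0.80, -0.64 and -1.33 (adjusted p = 0.0173, 0.0293 and 0.00011), with -0.53 at 2.1 mM (adjusted p = 0.0647). E2f3 was at -0.00 at 2.1 mM (adjusted p = 0.992) and lower at 3.5 mM (-1.39, adjusted p = 0.000271). At 3.5 mM no member passed through the probe set read.

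DNA replication genes, active in S phase, passed the test in smaller numbers. Of 33 measured 4 were lower and 1 higher at 2.1 mM (median -0.31), and 0 at 0.35 mM (median 0.09), where 10 of 39 mitotic genes and 5.56% of all genes were lower. Mcm7, of the replicative helicase, fell by 1.15 at 2.1 mM (adjusted p = 0.0156), and Tk1, thymidine kinase, by 1.79 (adjusted p = 0.0206). Pcna, the polymerase clamp, named after its values were seen, rose by 0.50 (adjusted p = 0.0323). Tyms, thymidylate synthase, was at -0.32 at 2.1 mM (adjusted p = 0.236) and was lower than untreated at 3.5 mM (-0.89, adjusted p = 0.00227). Through the probe sets read, no member passed at that dose. From 2.1 to 3.5 mM 12 rose and 1 fell. At 2.1 mM 2 of 16 kinesins of interphase transport were lower and 4 higher (median 0.04): Kif21b fell by 1.90 and Kif3c rose by 1.55 (adjusted p = 0.000191 for both). Of 12 macrophage markers 2 were lower at 2.1 mM and 0 higher, with a median of -0.07. No test compared these lists with the members.

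**Figure D5:**
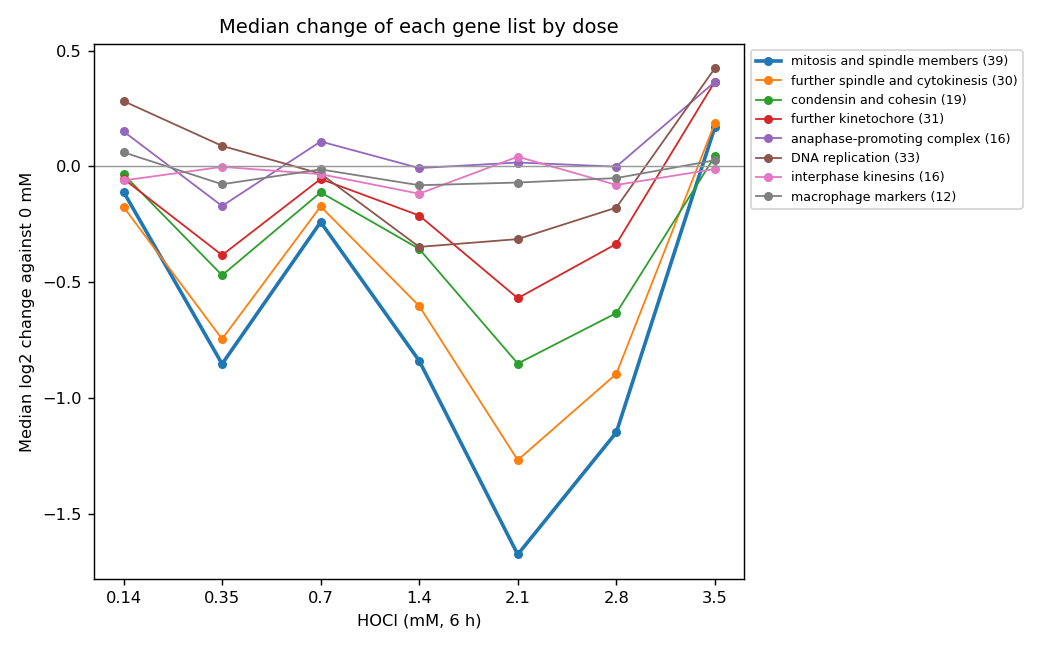
Median log2 change against 0 mM of 8 gene lists by HOCl dose in mM, with the number of measured genes in the legend. The members (thick line) reach -1.67 at 2.1 mM and 0.17 at 3.5 mM, the further spindle genes -1.27, and the interphase kinesins and macrophage markers stay between -0.12 and 0.06.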

How the data were processed

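The authors deposited 1 table of log2 values for 25 Affymetrix mouse genome arrays, with the median of each array at 0. Per the submitters' processing notes these log2 values come from RMA, with the version not given in the sources used here, and per the labels the intensities were extracted with Array Assist. The log base is inferred from the span of the values. Control probe sets (64 of 45101) were set aside, and of the 45037 tested 34945 carry 1 gene symbol, 932 several and 9160 none. Adjusted p-values throughout are from limma 3.58.1 (R 4.3.3), with a mean per dose fitted over all 25 arrays, moderated variances and Benjamini-Hochberg adjustment over all probe sets within each comparison, at a threshold of 0.05; values after ± are standard errors of this fit unless called SD. Counts over all genes use 1 probe set a gene. The scripts used python 3.11.15 and pandas 2.3.3 and were tested on simulated data.

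The members and lists were chosen with earlier results of these data known. Named were the 5 members of largest change among those called and the 2 of smallest change in each comparison, the member of lowest F test p in each role group (with every array), Cdk1, Plk1, Aurkb, Top2a and Cenpa, and up to 3 genes of lowest F test p in each other list. Further members named beside their role group, Foxm1, Mybl2, Rbl2, Lin9 and Pcna were chosen after their values were seen. Some genes of the other lists are not reported here. Replicate numbers were not used to pair the arrays in the main fit. Deviations from the dose means correlated above 0.1 in 19 of 84 same-numbered pairs (median -0.03, range -0.70 to 0.56). Pairs with different numbers were not examined, so this cannot show whether the arrays were paired.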

Additional observations from a re-analysis of the deposited data

Results flagged for a closer look

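In the 0 mM group of 4 arrays, 1 array lay far from the other 3 for 10 members. Replicate 1 was low for Cenpa (4.54, the others 5.47 to 5.51), Ndc80 (1.55, the others 2.47 to 2.63), Ccnb2 (0.883, the others 5.10 to 5.45), Pttg1 (6.04, the others 7.06 to 7.10) and Ect2 (1.18, the others 3.04 to 3.32). Replicate 3 was high for Cenpe (3.52, the others 3.02 to 3.08), Ccna2 (5.74, the others 4.83 to 4.88), Plk1 (4.40, the others 3.54 to 3.66), Aurka (4.70, the others 4.21 to 4.27) and Kif2c (3.59, the others 2.62 to 2.73). Chance marks about 1 in 20 groups of this size, and the members are not independent of each other. Groups of 3 arrays were not examined in this way.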

How the results depend on the processing

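No value past the threshold changed direction. The median at 0.7 mM, where 0 members passed, turned from -0.24 to 0.06 with array weights estimated gene by gene, and that at 1.4 mM went from -0.84 to -0.48. The named members were counted once for each of their comparisons and each alternative setting, 25 of which left out 1 array. Of these repeated values 2267 kept their side of the threshold, 200 fell short of it and 34 passed it newly. Many leave out an array of a dose not compared, so the counts are not independent. When each array was left out in turn, the count of members lower than at 0 mM ran from 0 to 17 at 0.35 mM, 0 to 16 at 1.4 mM, 24 to 35 at 2.1 mM and 4 to 35 at 2.8 mM, and from 0 to 5 at 0.35 against 0.14 mM. Members higher ran from 2 to 36 at 3.5 against 2.8 mM, 33 to 37 at 3.5 against 2.1 mM and 0 to 1 at 3.5 against 0 mM. The medians ran from -0.22 to -0.02 at 0.14 mM, -1.05 to -0.72 at 0.35 mM, -0.55 to -0.08 at 0.7 mM, -1.29 to -0.43 at 1.4 mM, -1.82 to -1.51 at 2.1 mM, -1.64 to -0.94 at 2.8 mM and 0.05 to 0.27 at 3.5 mM.

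For all moves below the cause was not tested. Shares over all genes were computed for the main fit only. The counts under other settings, including the omissions and array weights, therefore do not show how far the members differ from other genes. Quantile normalization gave 10 members lower at 1.4 mM. With only the arrays of the doses compared, the counts were 16 (0.35 mM), 0 (1.4 mM), 4 (2.8 mM), 22 (0.35 against 0.14 mM), 13 (2.1 against 0.35 mM) and, higher, 2 (3.5 against 2.8 mM); fewer arrays enter these fits. Without dim probe sets they were 10 (1.4 mM) and 5 (0.35 against 0.14 mM), and with the probe set of largest variance 1 (0.35 against 0.14 mM). With the replicate block they were 3 (0.35 mM), 0 (1.4 mM), 12 (2.8 mM) and 0 (0.35 against 0.14 mM), with 33 at 2.1 mM. With the spike level as a term they were 6 (0.35 mM) and 0 (1.4, 2.1 and 2.8 mM, and 0.35 against 0.14 mM), with medians of -1.44 at 2.1 mM and 0.38 at 3.5 mM. Within the low spike level they were 17 (0.35 mM), 11 (0.35 against 0.14 mM) and, higher, 5 (0.7 against 0.35 mM).

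Array weights estimated gene by gene, chosen after seeing the data, gave 2 members lower at 0.14 mM, 22 at 0.35 mM, 1 at 0.7 mM, 10 at 1.4 mM, 39 at 2.8 mM, 17 at 0.35 against 0.14 mM, 1 at 1.4 against 0.7 mM and 25 at 2.1 against 0.35 mM. They gave 13 higher at 0.7 against 0.35 mM, 2 at 2.8 against 2.1 mM and 2 at 3.5 against 0 mM. The default array weights did not converge and were not run. The number of arrays limits the precision.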
